A study of Homo sapiens with 4 samples.

Results

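The RAB genes encode the largest family of small GTPases, and their GapR-GFP peaks were examined in the human colorectal carcinoma line HCT116. Members were the autosomal protein-coding genes of a RefSeq table for GRCh38.p14 whose symbol is RAB plus a number and an optional letter. RAB26 and the RAB3GAP and RAB11FIP genes were left out. This gave 56 genes of 19126 autosomal protein-coding genes. The members had a median length of 34.7 kb, against 24.5 kb for all of these genes.

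GapR is a bacterial protein that binds overtwisted (positively supercoiled) DNA, and CUT&RUN cuts out and sequences the fragments around a protein that an antibody has found, in this case through the GFP tag. The series held 4 libraries: 2 of the wild-type fusion (WT, genotype labelled wildtype) and 2 labelled MT. The series design calls MT a mutant GapR, whereas its genotype label reads TOP2A + TOP2B double knockout. All 4 carry a label of 2 µM palbociclib for 28 h, an arrest in G1, although the design speaks of asynchronous cells. The files did not settle these conflicts, so MT is named by its label.

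Filtered fragments numbered 21774260 in WT replicate 1, 27443146 in WT replicate 2 and 23356540 in MT replicate 1, which served as control for both peak lists. MT replicate 2 was not analysed here. Each peak marks a site with more fragments in 1 WT library than in MT replicate 1, and no test between groups was possible. Nothing in the labels says that the WT replicates came from separate cultures. A peak is described by the pileup (fragments covering its summit) and the local MT level computed back from pileup and fold. The third value is the fold enrichment of WT over MT, which is the authors' value. The lowest MT level, 1.87 in the list of WT replicate 1 and 2.20 in that of WT replicate 2, equals an even genome background. MT coverage at such a site can lie below this level, and the fold enrichment is then over that background. Where 2 values are paired below, that of WT replicate 1 comes before that of WT replicate 2. A peak of WT replicate 1 that overlaps one of WT replicate 2 by at least 1 bp is called replicated, and a gene counts as having a summit if one lies in it or within 5 kb.

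RAB proteins switch between a membrane-bound GTP form and a cytosolic GDP form, and each marks a particular set of vesicles or organelles. In their GTP form they recruit effectors such as tethers and motors, while exchange factors load GTP and GAPs end the signal. Many members, such as RAB1A, RAB5A, RAB7A and RAB11A, act in nearly every cell, and others, such as RAB3A in neurons or RAB25 in epithelia, serve specialised transport.

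The letters at gene starts are shown for 8 members, because RAB13, the member highest in both lists, had its peak at a start and because the CpG content of these windows is compared further on. Each window runs from 250 bases before to 50 after a listed start, 5′ to 3′ on the strand of the gene, from RefSeq (GRCh38.p14), with each CpG dinucleotide in capitals. RAB13 (chr1:153986290-153986589, minus strand), RAB11B (chr19:8390110-8390409, plus strand) and RAB4B (chr19:40777997-40778296, plus strand) had the highest fold enrichments at a start in WT replicate 1.
RAB13: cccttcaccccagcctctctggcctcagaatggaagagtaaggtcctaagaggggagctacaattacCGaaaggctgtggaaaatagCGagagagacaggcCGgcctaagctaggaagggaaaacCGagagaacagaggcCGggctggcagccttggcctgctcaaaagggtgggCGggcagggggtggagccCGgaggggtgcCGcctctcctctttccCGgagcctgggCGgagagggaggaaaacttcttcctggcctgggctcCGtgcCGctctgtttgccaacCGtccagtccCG
RAB11B: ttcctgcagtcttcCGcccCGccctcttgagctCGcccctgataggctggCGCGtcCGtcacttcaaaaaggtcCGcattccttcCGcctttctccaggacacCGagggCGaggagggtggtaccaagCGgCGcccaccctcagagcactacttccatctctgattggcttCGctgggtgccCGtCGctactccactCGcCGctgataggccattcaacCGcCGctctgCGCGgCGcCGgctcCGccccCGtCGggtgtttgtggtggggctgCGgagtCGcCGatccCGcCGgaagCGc
RAB4B: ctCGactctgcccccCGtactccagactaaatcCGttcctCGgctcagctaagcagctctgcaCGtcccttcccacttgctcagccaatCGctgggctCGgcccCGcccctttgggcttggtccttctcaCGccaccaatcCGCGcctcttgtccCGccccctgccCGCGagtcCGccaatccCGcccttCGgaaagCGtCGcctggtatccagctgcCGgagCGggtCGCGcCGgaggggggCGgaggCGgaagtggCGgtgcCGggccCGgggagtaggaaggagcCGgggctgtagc
RAB25 (chr1:156060910-156061209, plus strand), RAB17 (chr2:237590685-237590984, minus strand) and RAB7B (chr1:206003346-206003645, minus strand) had a replicated start peak although few CpGs stand in their windows.
RAB25: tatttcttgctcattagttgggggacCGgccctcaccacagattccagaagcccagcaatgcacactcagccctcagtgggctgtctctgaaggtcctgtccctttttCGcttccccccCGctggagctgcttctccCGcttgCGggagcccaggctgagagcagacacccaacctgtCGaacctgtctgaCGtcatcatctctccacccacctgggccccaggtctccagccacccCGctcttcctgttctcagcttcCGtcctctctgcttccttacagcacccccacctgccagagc
RAB17: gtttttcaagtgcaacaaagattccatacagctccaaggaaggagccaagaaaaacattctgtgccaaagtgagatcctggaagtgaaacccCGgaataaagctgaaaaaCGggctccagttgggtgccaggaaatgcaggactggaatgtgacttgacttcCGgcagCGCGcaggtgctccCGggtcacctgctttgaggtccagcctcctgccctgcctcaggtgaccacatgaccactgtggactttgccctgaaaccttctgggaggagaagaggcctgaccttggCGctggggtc
RAB7B: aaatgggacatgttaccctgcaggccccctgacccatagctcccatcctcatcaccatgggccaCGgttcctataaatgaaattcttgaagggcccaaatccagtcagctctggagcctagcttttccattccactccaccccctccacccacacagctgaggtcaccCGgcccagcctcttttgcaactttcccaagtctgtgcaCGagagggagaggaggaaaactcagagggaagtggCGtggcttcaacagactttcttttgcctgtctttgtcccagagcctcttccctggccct
RAB32 (chr6:146543583-146543882, plus strand) and RAB31 (chr18:9708051-9708350, plus strand) had the windows richest in CpG among members without a replicated start peak.
RAB32: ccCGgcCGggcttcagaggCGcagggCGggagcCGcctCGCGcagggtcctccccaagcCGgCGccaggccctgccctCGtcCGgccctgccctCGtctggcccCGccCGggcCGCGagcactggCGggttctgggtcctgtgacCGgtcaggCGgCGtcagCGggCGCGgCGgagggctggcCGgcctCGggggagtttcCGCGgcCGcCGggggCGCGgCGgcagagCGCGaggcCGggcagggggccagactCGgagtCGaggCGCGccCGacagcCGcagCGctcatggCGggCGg
RAB31: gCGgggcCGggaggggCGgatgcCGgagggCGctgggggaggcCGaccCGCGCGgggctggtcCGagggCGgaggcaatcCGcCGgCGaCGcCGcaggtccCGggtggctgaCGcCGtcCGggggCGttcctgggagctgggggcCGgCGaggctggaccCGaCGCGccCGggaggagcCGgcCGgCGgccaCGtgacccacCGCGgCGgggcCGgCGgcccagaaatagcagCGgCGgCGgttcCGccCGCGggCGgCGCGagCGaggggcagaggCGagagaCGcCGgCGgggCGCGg

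A replicated summit was found at 41 of the 56 members (73.2%), against 68.8% of all autosomal protein-coding genes, so the share of RAB genes with a peak stood near the background. Among peaks whose MT level was at the lowest of each list, the count was 14 of 56, against 33.4% of all genes, below the background. WT replicate 1 placed a summit at 49 members (87.5%, against 79.5% of all genes) and WT replicate 2 at 43 (76.8%, against 70.5%). Inside the gene itself, a replicated summit was found in 31 members (55.4%, against 48.2%), one of WT replicate 1 in 41 (73.2%, against 63.0%) and one of WT replicate 2 in 31 (55.4%, against 52.9%). By length, 6 of 10 members under 10 kb had a replicated summit (background 51.5%), as did 13 of 16 of 10 to 30 kb (68.6%), 15 of 22 of 30 to 100 kb (79.1%) and 7 of 8 over 100 kb (80.7%). At the limit of 5 kb, the single replicated summit of RAB3D lay 4821 bp outside the gene, and the nearest one to RAB42 lay 5016 bp outside and was not counted.

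The 41 members held 82 replicated summits, of which 47 were left where the overlap had to reach 50% of both peaks. Of the 41 members, 19 had 1 replicated summit, 14 had 2 and 8 had 3 or more. These classes were not counted over all genes. The median number of replicated summits, genes without one included, was 1 for members and 1 for all genes. The highest fold enrichment per member had a median of 8.71 (WT replicate 1) and 6.27 (WT replicate 2), near the 8.01 and 6.01 of all genes with a replicated summit. It ranged from 3.15 to 16.4 in WT replicate 1 and from 3.09 to 11.7 in WT replicate 2. In 34 of the 41 members it was higher in WT replicate 1, the list in which the median over all genes was higher too (8.01 against 6.01). Across these members, which share their libraries and are no replicates, Spearman's rho between the lists was 0.63 and Pearson's r 0.70.

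**Figure D1:**
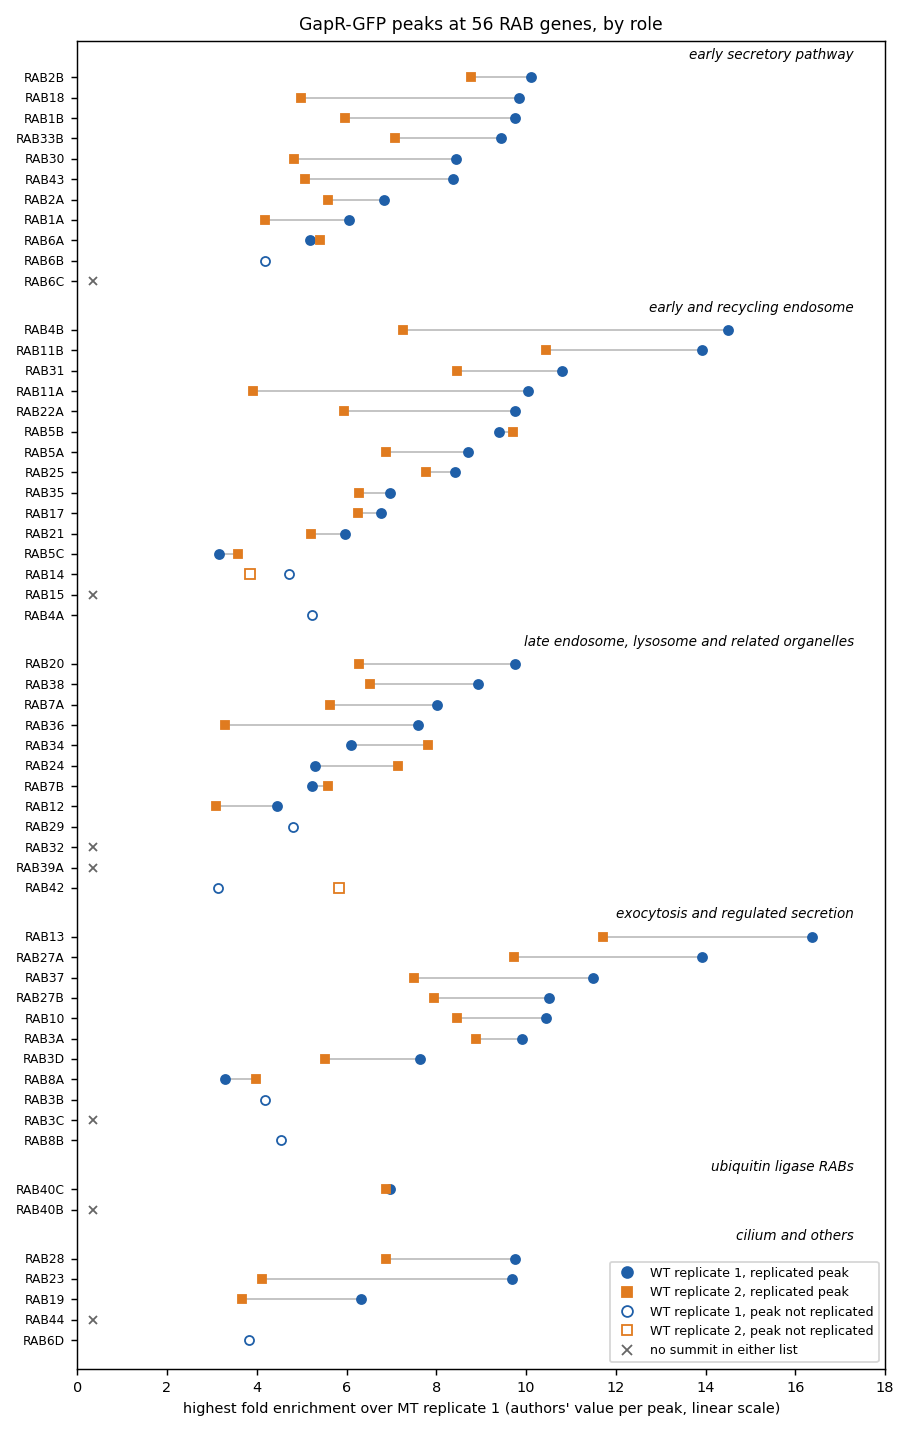
Highest fold enrichment of WT over MT replicate 1 (linear axis) for each of the 56 members, grouped by role; circles are WT replicate 1 and squares WT replicate 2, filled where the peak was replicated. RAB13 stood highest in both lists, at 16.4 and 11.7, and 7 members carried no summit in either list.

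In RAB genes with a listed start, nearly as many replicated summits lay at a start as everywhere else together. A table of listed starts covered 46 members and had no entry for RAB1A, RAB2A, RAB12, RAB15, RAB20, RAB33B, RAB36, RAB37, RAB38 and RAB44. Of the 46, 30 (65.2%) had a replicated summit within 1 kb of a listed start, called a start peak below, against 53.0% of 15101 genes. In WT replicate 1 alone 38 of 46 (82.6%) had a summit there, against 60.9% of genes, and in WT replicate 2 alone 30 (65.2%), against 55.0%. No test bears on these gaps.

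Start peaks made up 30 of the 65 replicated summits at these 46 members (46.2%, against 37.7% over all genes). It was 20.2% over all summits of WT replicate 1 (18.7% over all genes) and 38.1% over those of WT replicate 2 (33.6%). The gene interior held 25 (38.5%, against 44.7%), the 5 kb beyond the gene 7 and the stretch before it 3. Around the start, 15 summits lay before it and 15 after it, from -671 to 556 bp, at a median distance of 246 bp (234 bp for all genes). At start peaks the pileup was 10 to 59 fragments in WT replicate 1 (median 27) and 11 to 39 in WT replicate 2 (median 20.5), over MT levels of 1.87 to 4.20 and 2.20 to 4.83. Median fold enrichment at member starts was 8.57 and 5.44, against 7.37 and 5.73 at the starts of all genes, so members stood above the other starts in 1 list and below them in the other. Interior replicated summits of members had medians of 5.27 and 4.99.

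Summits of both lists lay close together at starts, with a median gap of 79 bp, against 159 bp in the interior. A further 8 members had a start summit in WT replicate 1 that WT replicate 2 did not share, namely RAB3B, RAB3D, RAB4A, RAB6B, RAB8B, RAB14, RAB29 and RAB31. These were low, at 9 to 15 fragments and fold enrichments of 3.48 to 5.23. For comparison, 38 members had a start summit in WT replicate 1 and 30 a replicated one. Over 15101 genes the counts were 9189 and 8002. The smallest pileup of any called peak had 7 fragments (WT replicate 1) or 9 (WT replicate 2), and a missing call does not show that a site is without signal.

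**Figure D2:**
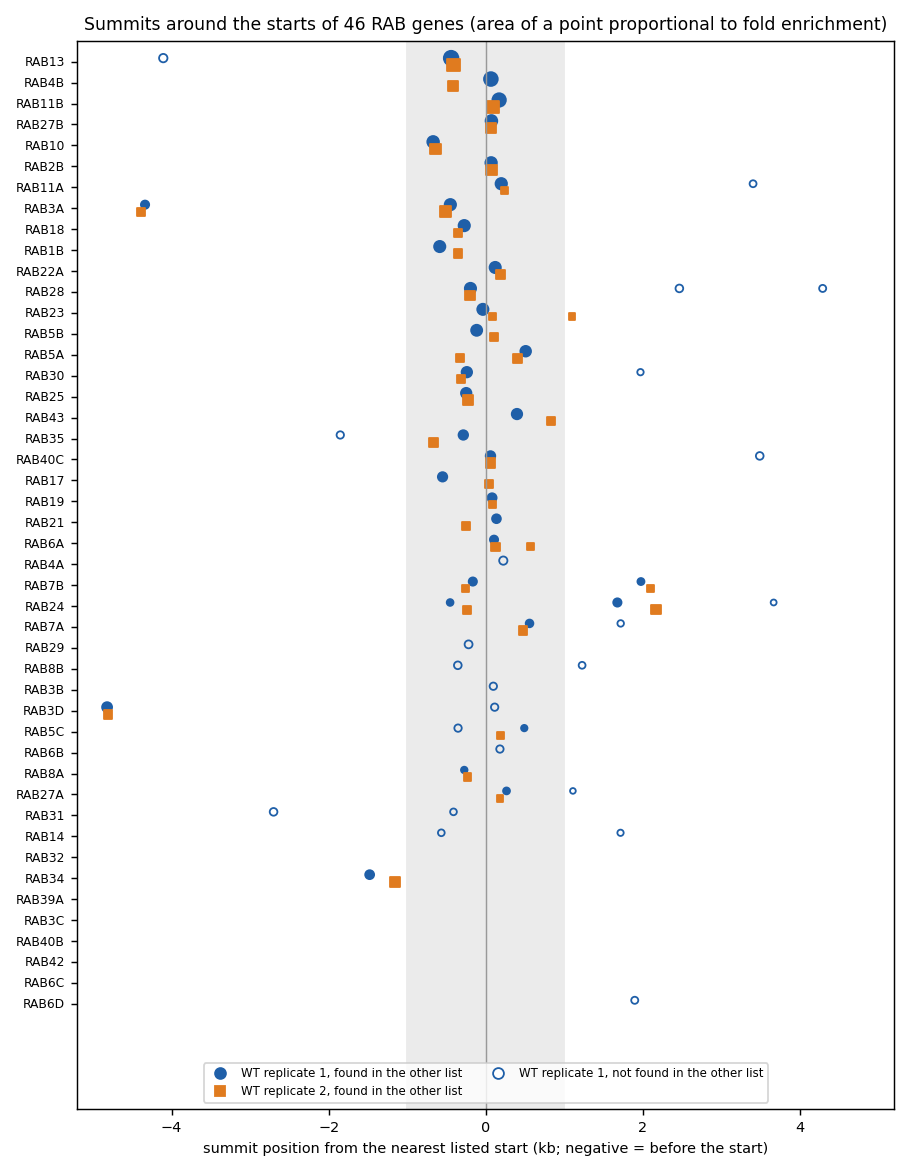
Summits within 5 kb of the nearest listed start (position in kb, shaded within 1 kb) for the 46 members with a listed start, ordered by their highest start fold enrichment; circles are WT replicate 1, squares WT replicate 2, open where the other list held no overlapping peak. The 30 replicated start summits, placed by WT replicate 1, lay between -671 and 556 bp.

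Some of these starts lie close to that of another gene. Of the 30 start summits, 17 (56.7%) lay within 1 kb of a listed start of another gene of any class, against 36.9% over all genes, and 4 (13.3%) within 1 kb of that of another protein-coding gene, against 21.3%. Of all 65, 29 (44.6%, against 34.9%) lay nearer to another gene's start than to the member's own, and 13 (against 23.1%) nearer to that of another protein-coding gene. Divergent and antisense RNA genes were among these neighbours: RAB11B-AS1 starts 162 bp, RAB30-DT 73 bp, RAB17-DT 125 bp and RAB35-AS1 133 bp from the summit at the member they are named for. Such a peak cannot be given to 1 of the genes.

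CpG counts of members with and without a start peak overlapped widely, from 4 to 45 with one and from 7 to 52 without. The window at the outermost listed start held a median of 26.5 CpGs in the 30 members with a start peak and 23.5 in the 16 without one. Over all genes the medians were 27.0 and 10.0. Of the 5 members with fewer than 10 CpGs, 4 had a start peak, namely RAB7B, RAB17, RAB25 and RAB27B, whereas 15.1% of the 4088 genes with so few did. With 10 to 19 CpGs 5 of 11 members had one (56.1% of genes), with 20 to 29 it was 8 of 11 (72.7%) and with 30 or more 13 of 19 (68.2%). From 10 CpGs upward, with few members per class, the counts stood near the background. Under 10 CpGs the share of members lay above it, but on 5 members and without a test. RAB17 and RAB25 act in the polarised transport of epithelial cells, and RAB27B in exocytosis. The peak of RAB27B lay at its other listed start, so its CpG count is that of another window. Conversely RAB31 with 52 CpGs and RAB32 with 45, whose windows are printed above, had none.

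The GC box letters GGGCGG, searched on both strands, stood in 37 of 46 member windows (80.4%, against 58.7% of all genes), in 25 of 30 with a start peak (83.3%, against 72.2% of all genes with one) and in 12 of 16 without one (against 43.5%). CCAAT stood in 11 (23.9%, against 36.1%), and the E-box CACGTG in 6 (13.0%, against 8.71%). The TATA letters TATAAA stood in 3 (6.52%, against 9.83%), those of RAB7B, RAB6C and RAB6D. A window can hold several of these motifs, and a match is a description of letters, not of a bound site.

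**Figure D3:**
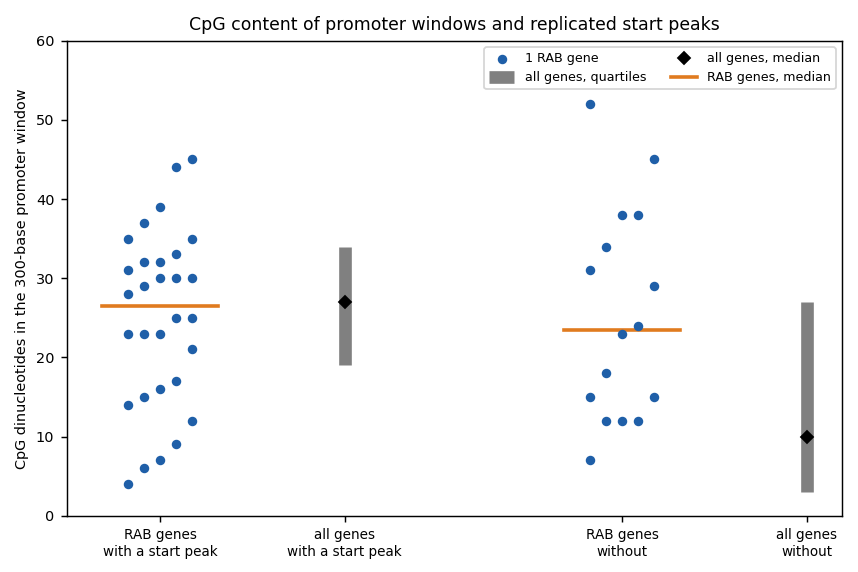
Number of CpG dinucleotides in the 300-base promoter window, for members with and without a start peak (points, with the median as a line) beside the median and quartiles of all genes. Members with and without a start peak had medians of 26.5 and 23.5, against 27.0 and 10.0 for all genes.

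In the exocytosis group 8 of 11 members had a replicated summit (background 68.8%), with the highest group median among groups of over 5 members (10.5 and 8.20). RAB13, which controls tight junction assembly (chromosome 1, 153981650 to 153990708 in hg38), had 49 fragments in WT replicate 1 and 39 in WT replicate 2 at its start, over MT levels of 2.05 and 2.41. Its fold enrichments of 16.4 and 11.7 were exceeded by 1.07% and 1.34% of all genes with a replicated summit. The summit lay 442 bp before a listed start of RAB13 and 3981 bp from that of RPS27, a ribosomal protein gene, and a further one beyond the gene lay 93 bp from the start of JTB.

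RAB27A and RAB27B drive the docking of secretory granules and exosomes. The strongest peak of RAB27A (chromosome 15, 55202966 to 55319123) had 40 and 31 fragments over MT levels of 1.95 and 2.29, at fold enrichments of 13.9 and 9.73. It lay inside the gene, at -19537 bp from the nearest of 5 listed starts, while the start peak, shared with PIGBOS1 at 263 bp, reached 3.66 and 3.72. RAB27B (chromosome 18, 54717857 to 54895516) had 34 and 26 fragments 71 bp after its inner listed start (10.5 and 6.86), and 36 and 35 fragments at -52267 bp from that start (9.75 and 7.96). In both paralogs a peak thus stood away from the outermost start.

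RAB10, which moves GLUT4 vesicles to the plasma membrane (chromosome 2, 26033285 to 26137454), had 29 and 26 fragments 671 bp before its listed start, over MT levels of 1.87 and 2.20 (fold enrichments of 10.5 and 8.45). That summit lay nearer, at 336 bp, to the start of LOC124907743. RAB3A, the synaptic vesicle RAB (chromosome 19, 18196784 to 18204042), had 32 and 34 fragments 452 bp before its start, over MT levels of 2.33 and 2.94 (9.91 and 8.89). The summit before its start lay nearer, at 236 bp, to the start of LOC102725254. All 4 replicated summits of RAB3A lay outside the gene, 1 of them 538 bp from the start of MPV17L2. RAB37 (chromosome 17, 74671131 to 74747335), a RAB of secretory granules, had 32 and 23 fragments inside the gene at fold enrichments of 11.5 and 7.51.

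RAB3D, of secretory granules in exocrine cells, had its single replicated summit at 7.64 and 5.52, 2041 bp from the start of CCDC159 and farther from its own. RAB8A, which carries cargo to the basolateral membrane and the cilium, was among the lowest members with a replicated peak, at 13 and 17 fragments (3.28 and 3.98). Its paralog RAB8B had 4 summits in WT replicate 1 and none in WT replicate 2. RAB3B had 5 and none, and RAB3C, a neuronal vesicle RAB of 277243 bp, had none in either list.

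In the early and recycling endosome group 12 of 15 members had a replicated summit (background 68.8%; group median 9.06 and 6.58), and 11 of the 14 with a listed start had a start peak (background 53.0%). RAB11B, of the recycling endosome (chromosome 19, 8390360 to 8404434), had 40 and 36 fragments 169 bp after its start, over MT levels of 1.95 and 2.54, at fold enrichments of 13.9 and 10.4. Its close paralog RAB11A (chromosome 15, 65869491 to 65891989) had 34 and 19 fragments 196 bp after its start, over 2.49 and 4.11 (10.0 and 3.91). RAB11A ranked 10 among the 41 by WT replicate 1 but 37 by WT replicate 2, the widest gap in rank among the members.

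RAB4B, of rapid recycling (chromosome 19, 40778247 to 40796942), had 59 and 33 fragments 64 bp after its start, over 3.14 and 3.69. Its fold enrichments of 14.5 and 7.26 were exceeded by 2.76% of genes with a replicated summit in WT replicate 1 and by 28.1% in WT replicate 2, so its high standing rests on 1 library. Its paralog RAB4A had a start summit in WT replicate 1 alone, with 14 fragments (5.23).

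RAB5A, RAB5B and RAB5C govern the fusion of early endosomes, and each had a start peak. RAB5A had 24 and 21 fragments (8.71 and 6.88), RAB5B 39 and 20 (9.38 and 5.03) and RAB5C 10 and 11 (3.15 and 3.58), so RAB5C was the lowest of the 3 in both lists. A second peak of RAB5B lay 292 bp beyond the gene and 301 bp from the start of SUOX (9.41 and 9.70).

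RAB25, an epithelial RAB11 relative, had 27 and 25 fragments 250 bp before its start (8.41 and 7.76). RAB17, also of epithelia, had 31 and 27 fragments 551 bp before its start (6.77 and 5.48). RAB22A, an early endosome RAB, had 27 and 18 fragments at its start (9.75 and 5.95). RAB35, of fast recycling, reached 6.97 and 6.27, and RAB21, which traffics integrins, 5.96 and 5.21. RAB15 had no summit in either list.

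RAB31, of traffic between the Golgi and endosomes (chromosome 18, 9708301 to 9862551), held the most replicated summits, 7 of the 82, and none at its start. The strongest in WT replicate 1 had 35 and 21 fragments 35280 bp into the gene (10.8 and 6.82), and the strongest in WT replicate 2 had 25 and 26 fragments at 120489 bp (6.10 and 8.45). Start summits of WT replicate 1 reached 9 fragments there.

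In the early secretory group 9 of 11 members had a replicated summit (background 68.8%; group median 8.43 and 5.40), and 6 of the 8 with a listed start had a start peak (background 53.0%). RAB2B, of traffic from the endoplasmic reticulum to the Golgi (chromosome 14, 21459020 to 21476959), had 28 and 27 fragments 67 bp after its start, over MT levels of 1.87 and 2.20 (10.1 and 8.76). This summit of RAB2B lay 303 bp from the start of TOX4. Its paralog RAB2A had 19 and 17 fragments 226 bp outside 1 end of the gene (6.84 and 5.58). RAB33B, a Golgi RAB that also serves autophagy (chromosome 4, 139438376 to 139476609), had 36 and 31 fragments in the gene interior (9.44 and 7.07), 435 bp from the start of RAB33B-AS1.

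RAB1B, of transport from the endoplasmic reticulum to the Golgi, had 27 and 26 fragments 587 bp before its start (9.75 and 5.97), and RAB1A 22 and 13 fragments 655 bp outside the gene (6.06 and 4.18). The RAB1B summit lay nearer, at 359 bp, to the start of KLC2-AS2. RAB6A, of retrograde transport to and within the Golgi, had 21 and 25 fragments at its start (5.18 and 5.40). RAB18, of lipid droplets, reached 9.84 and 4.98, and the Golgi members RAB30 and RAB43 8.43 and 4.83 and 8.36 and 5.08, each at its start. The neuronal paralog RAB6B had 1 summit in WT replicate 1 alone (4.18), and RAB6C, an intronless copy of RAB6A, had none, although near-identical copies make read placement there uncertain.

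Of the late endosome and lysosome members 8 of 12 had a replicated summit (background 68.8%; group median 6.84 and 5.95) and 3 of the 8 with a listed start had a start peak (background 53.0%). RAB7A, the main late endosome RAB (chromosome 3, 128726183 to 128814798), held 6 replicated summits. That at its start had 12 and 15 fragments (4.53 and 5.01), and the other 5 lay 61427 to 80836 bp into the gene. Of these 5, the highest in WT replicate 1 had 22 and 11 fragments (8.01 and 3.76). The highest in WT replicate 2 had 18 and 17 fragments (6.62 and 5.63). RAB7B (chromosome 1, 205976740 to 206003395) held 4, the start peak at 14 and 11 fragments (5.23 and 3.76).

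RAB38, a melanosome RAB of 371729 bp, also held 4, the highest with 26 and 21 fragments 494 bp inside 1 end (8.93 and 6.52). RAB34, of cilium assembly, and RAB24, of autophagy, were higher in WT replicate 2: RAB34 had 25 and 24 fragments 1479 bp before its start (6.10 and 7.82), and RAB24 had 24 and 27 fragments 1674 bp after its start (5.29 and 7.14). The start peak of RAB24 had 14 and 15 fragments 455 bp before its start (3.52 and 5.01). Its summit lay nearer, at 375 bp, to the start of PRELID1. Replicated peaks covered 71.8% of the 2522 bp of RAB24. RAB20, of phagosome maturation, reached 9.75 and 6.27, RAB36 7.59 and 3.30, and RAB12, which sends the transferrin receptor to lysosomes, 4.44 and 3.09.

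Of the remaining members, RAB28, of photoreceptor cilia (chromosome 4, 13367724 to 13484340), had 27 and 21 fragments 196 bp before its start (9.75 and 6.88), with both summits 6 bp apart. The RAB28 summit lay nearer, at 87 bp, to the start of LOC105374495. RAB23, which restrains Hedgehog signalling in the cilium, had 38 and 23 fragments (9.68 and 4.12), and RAB19 19 and 12 (6.32 and 3.67). RAB40C, whose product carries a SOCS box that recruits a ubiquitin ligase, had 19 and 21 fragments 59 bp after a start (6.97 and 6.88), while its paralog RAB40B had no summit in either list. RAB6D, a further RAB6 copy, had 1 summit in WT replicate 1 alone (3.83).

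In all, 15 members had no replicated summit. They include RAB32, of melanosomes, and RAB29, a partner of the kinase LRRK2. RAB3C, RAB6C, RAB15, RAB32, RAB39A, RAB40B and RAB44 had no summit in either list. RAB3B, RAB4A, RAB6B, RAB6D, RAB8B and RAB29 had summits in WT replicate 1 alone, while RAB14 had summits in both lists with no overlap. RAB42 had 1 in each list, that of WT replicate 2 overlapping the peak whose WT replicate 1 summit lay 5016 bp outside. None had a summit in WT replicate 2 alone.

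Inside RAB genes, the summits of WT replicate 1 were spread unevenly over the members. WT replicate 1 placed 244 summits at members, of which 33.6% were found in WT replicate 2 (38.0% over all genes), and WT replicate 2 placed 106, of which 86.8% were found in WT replicate 1 (86.7%). The 40 members of at least 20 kb had a median of 0.0424 summits of WT replicate 1 per kb inside the gene, against 0.0339 for the 10600 genes of that length, and 7 of the 40 had none, against 19.3% of genes. RAB35 and RAB8A were among the 7. Of the 40 members, 5 ranked within the densest 5% of genes, a limit chosen after the values were seen, namely RAB1A, RAB14, RAB10, RAB7A and RAB21. They held 93 of the 244 summits, of which 13 were found in WT replicate 2. Since they were picked by their number of summits in WT replicate 1, their values are a description.

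RAB1A had 19 summits of WT replicate 1 and 3 of WT replicate 2 inside 43253 bp, 0.439 per kb in WT replicate 1, a density that 0.226% of the 10600 genes exceeded. RAB14, of traffic between Golgi and endosomes, had 8 and 3 in 23737 bp, and RAB10 had 28 and 9 in 104170 bp. RAB7A had 23 and 7, and RAB21 had 11 and 0.

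In RAB1A, interior summits were low in both lists: there the pileups ran from 8 to 15 fragments in WT replicate 1 (median fold enrichment 3.48) and from 11 to 12 in WT replicate 2 (4.07). In RAB14 they ran from 10 to 14 (3.52) and from 12 to 14 (3.81), and no summit of one list overlapped a peak of the other. The interior summits of RAB21 in WT replicate 1 lay 23664 to 35654 bp after its start and none lay between these and its start peak. The part that sequencing depth or library quality plays in this difference between lists was not tested.

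**Figure D4:**
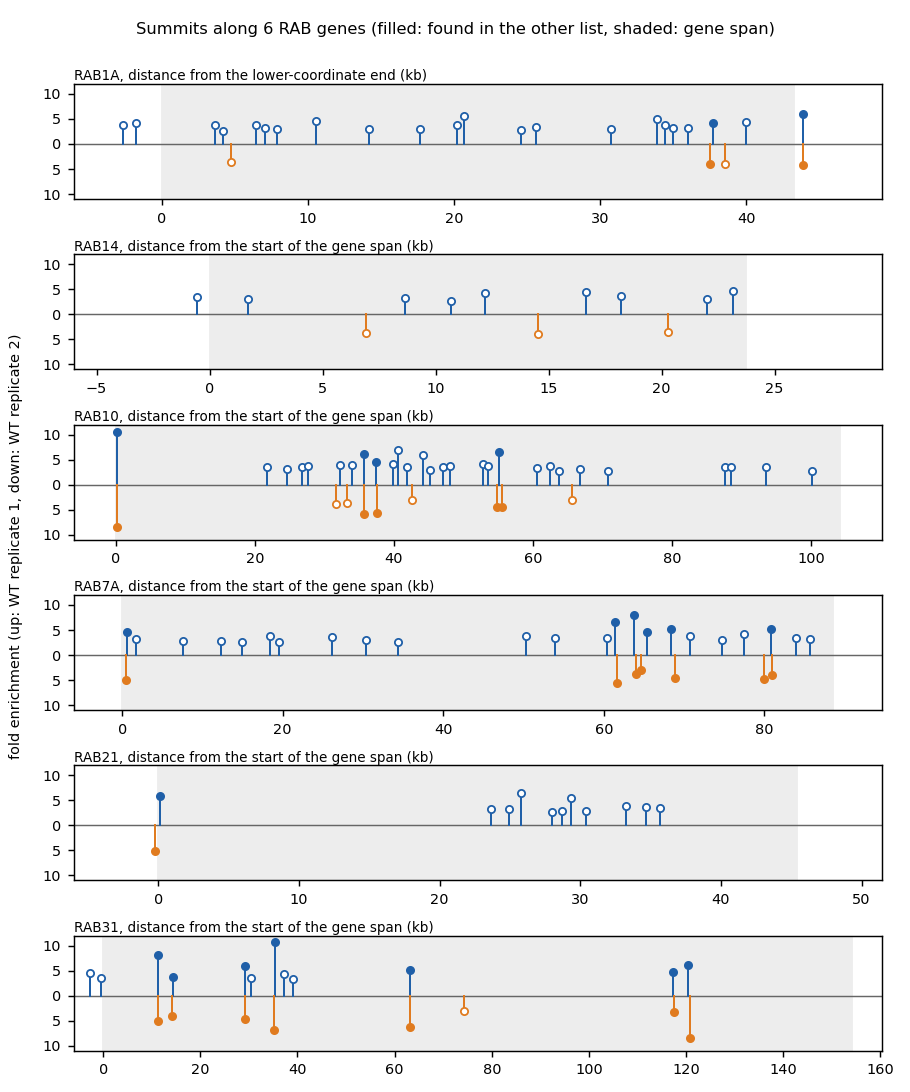
Summits along RAB1A, RAB14, RAB10, RAB7A, RAB21 and RAB31 (position in kb from the gene start, or from the lower-coordinate end for RAB1A; gene span shaded), with fold enrichment upward for WT replicate 1 and downward for WT replicate 2; filled points were found in the other list. RAB1A carried 19 interior summits in WT replicate 1 and 3 in WT replicate 2, whereas RAB31 held 7 replicated summits.

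Genes that regulate or read RAB proteins were listed apart: exchange factors, GAPs, prenylation factors and effectors. This list was chosen with earlier results of these data known, so its shares are a description. Of 83 symbols 80 were autosomal genes of the table, with a median length of 74.8 kb. A replicated summit stood in or within 5 kb of 79 of them (98.8%, against 68.8% of all genes, 79.1% of genes of 30 to 100 kb and 80.7% of longer ones). With the MT level at each list's lowest, 42 of the 80 had one, against 33.4% of all genes. A start peak stood at 53 of the 67 with a listed start (79.1%, against 53.0%). The median highest fold enrichment was 8.65 and 6.26, near that of the RAB genes. RABIF, which stabilises nucleotide-free RABs, had 18.8 and 13.8, PLEKHM1, a RAB7 effector at lysosomes, 18.1 and 14.4, and the GAP gene TBC1D16 13.5 and 11.3. DENND4C, an exchange factor gene for RAB10, had 13.2 and 11.3, and TBC1D14, of autophagy, 15.7 and 9.39. RIMS1, a RAB3 effector of the synapse, had no summit in either list.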

How the data were processed

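CUT&RUN for GFP in HCT116 was sequenced in 4 libraries, 2 labelled WT and 2 MT in their titles. Bowtie2 2.3.4, MACS2 2.1.2, ChIPseeker 1.28.3 and hg38 are named in the submitters' processing notes. Peaks were called with MACS2 on each WT library against MT replicate 1 at a q-value cutoff of 0.05 and a smallest length of 200 bp, with at most 2 fragments per position, per the file headers.

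The deposited pileup is a signal of fragment coverage, the deposited fold enrichment is a ratio of pileup to local control level with 1 added to both, and −log10 of the p-value and of the q-value were deposited as MACS2 wrote them. All pileups were whole numbers and were read as unscaled. The lowest MT level was 1.87 in the list of WT replicate 1 and 2.20 in that of WT replicate 2. It equals the background that the filtered fragments of each WT library would give if spread evenly over the genome. Of the 82 replicated summits of members, 28 in the first list and 24 in the second stood within 1% of it. MT levels in the 2 lists come from 1 library on different scales.

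Counting used Python 3.11.15 with numpy 2.4.6 and pandas 2.3.3 and was tested on simulated data. A replicated peak was placed at the summit of WT replicate 1. Named genes were the 12 members ranking best by the lower of their ranks in fold enrichment, the 6 with most replicated summits, all without one and the 3 with the largest gap in rank. The other members are given briefly. Members, lists and settings were chosen with earlier results of these data known, and results are counts and medians beside all genes, without tests. Other flanks, thresholds and overlaps were tried.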

Additional observations from a re-analysis of the deposited data

How the results depend on the processing

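No paired analysis was possible because both peak lists share MT replicate 1 and no list holds MT replicate 2. Of 45 alternative values, 38 stayed within the spread between the lists or within 1.5 times the count. These limits are wide, and the spread itself comes from the values of each list alone, which are among the alternatives. A fall from 41 to 31 members stayed within them. It was seen with a fold enrichment of at least 5 in both lists (48.4% of all genes) and with an overlap of 50% of both peaks (51.7%). Where the MT level had to be at each list's lowest, 14 members of 56 (against 33.4% of all genes) and 42 regulators had a replicated summit, and 21 summits were left. The share of members was then below that of all genes, whereas with all peaks it stood near it (73.2% against 68.8%). With an overlap of 50% of both peaks, 47 of the 82 summits were left. Using 1 WT list alone gave 43 to 49 members, 79 to 79 regulators and 106 to 244 summits. The start share was then 20.2% (WT replicate 1) and 38.1% (WT replicate 2) in place of 46.2%, and only the second stayed within the spread. The median highest fold enrichment was 8.01 with WT replicate 1 alone, against 8.71 at replicated peaks in that list. With WT replicate 2 alone it was 6.26, against 6.27 at replicated peaks in that list. The value of 6.26 was counted as moved because it was set against 8.71. With no flank 31 members and 63 regulators had a replicated summit (48.2% of all genes). The smallest called pileups had 7 fragments in the list of WT replicate 1 and 9 in that of WT replicate 2. WT replicate 2, the deeper library, had 42656 peaks, against 81411 in WT replicate 1, and the part of depth was not tested.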

Other observations

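Of the RAB genes, 6 lie on the X chromosome and were not among the members. RAB9A, which returns receptors to the Golgi, had 7 summits in WT replicate 1 and a single one in the list of WT replicate 2, with 1 replicated summit 3464 bp after its start, at 23 and 17 fragments (8.36 and 5.63). RAB33A had 6 and 1, with a replicated summit at 27 and 17 fragments (9.75 and 5.63) that lay 261 bp from the start of AIFM1. RAB41 and RAB9B had 1 summit each in WT replicate 1 and none in WT replicate 2, and RAB40A and RAB39B had none in either list.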
